A study of Mus musculus with 10 samples.

Results

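The latrophilin genes Adgrl1, Adgrl2 and Adgrl3 were examined in mature sperm by the peaks of accessible chromatin that lay within their GENCODE M21 gene bodies or within 100 kb on either side. Peaks of the 10 libraries that overlapped by at least 1 bp in these 3 windows were joined into merged regions, and 60 of the 113493 merged regions of the series fell there. They were built from 105 of 180022 peaks, with between 5 and 16 peaks per library. The genes were chosen from the diet contrast, because a stretch of chromosome 5 that is listed with Adgrl3 had peaks only in libraries of F0 WD males, so what follows on diet is a description of these genes, and the counts of calls given with it support nothing about them. The density of peaks against the rest of each chromosome did not enter that choice and was tested.

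Sperm were taken from the cauda epididymis of wild-type C57BL/6JRccHsd males and profiled by ATAC-seq, in which a transposase cuts DNA that is not tightly packed. The 6 F0 CD males were kept on a chow maintenance diet with 14% protein, and the 4 F0 WD males on a Western diet (40% of energy as fat, 43% as carbohydrate), both for 6 months from 4 weeks of age. Each library came from 1 mouse, so the spread given below is that between mice. The titles of the samples gave the diet of each library. The libraries held between 13366 and 29532 peaks (F0 WD replicate 4 and F0 CD replicate 2), and the weakest called summits held between 9 and 13 reads, so a missing peak means that a place was not called at this depth. Peaks within 3 kb of a start site of marker genes were few: 0 to 2 of 6 sperm genes per F0 CD library and 0 in F0 WD, with none at Prm2, Tnp1, Tnp2 or Akap3, so the marker genes did not identify the cells. Of the other lists, 0 to 1 of 3 testis genes per F0 CD library and 0 to 2 per F0 WD library had such a peak, 0 to 1 of 6 epididymis genes in both diets, with none at Cdh1, Epcam or Crisp1, and 0 to 2 of 4 immune genes in F0 CD and 0 in F0 WD, with none at Cd68.

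Latrophilins are adhesion G protein-coupled receptors, named for the binding of Adgrl1 to the toxin of black widow venom. Each has a long extracellular part that is cut from the membrane part as the protein matures and stays attached to it, and in the brain these receptors sit at synapses, where they bind teneurins, FLRT proteins and neurexins on the neighbouring cell. In sperm most histones have been replaced by protamines, which pack the genome tightly.

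The sequences under regions found in 3 or more libraries are shown first, because tandem repeats were the shared feature of these regions. Some regions of a single mouse held as much or more of them. Each line holds 30 bases around the strongest summit, from the plus strand of GRCm38 (mm10). Capitals mark runs of at least 3 units of CA or TG (written in either phase, on either strand). Lines are given for 5 of the 7 regions found in 3 or more libraries.

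Adgrl1 region 2, chr8:83811748-83811777: agtgagcaggggtgagtgtggtgggagagc

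Adgrl1 region 17, chr8:84014348-84014377: acatacatACACACtcatacacatacatac

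Adgrl2 region 3, chr3:148759136-148759165: gtgcacatttgtaTGTGTGcaTGTGTGTGc

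Adgrl2 region 20, chr3:149059998-149060027: cattcacatgttcatatACACACACtcaca

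Adgrl3 region 18, chr5:81806585-81806614: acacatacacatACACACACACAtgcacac

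CA or TG runs covered at least 25% of the bases in 5 of the 7 regions. Adgrl2 region 17 held no such run and was built of units of the vertebrate telomere repeat instead, and Adgrl1 region 2 held 6 copies of the 12-base word agcaggggtgag within 396 bp. All 7 thus held tandem repeats, and none overlapped a start site of a latrophilin gene.

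**Figure D1:**
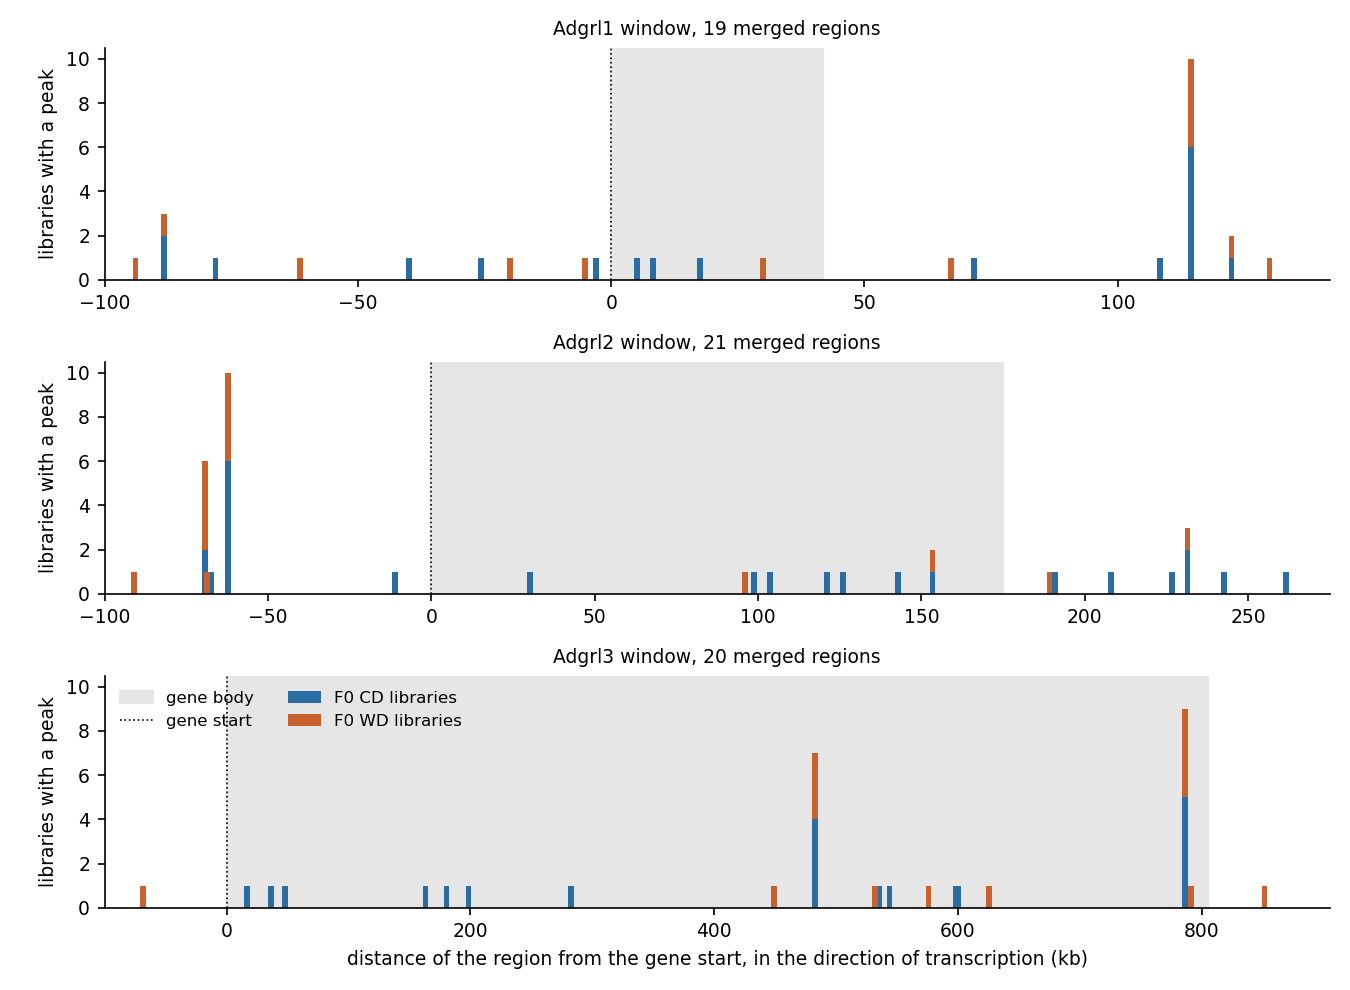
Merged regions in the windows of Adgrl1, Adgrl2 and Adgrl3, placed by distance from the gene start in kb along the direction of transcription, with the gene body in grey. Bar height is the number of libraries with a peak, split into F0 CD (blue) and F0 WD (orange). Most bars stand at 1 library, and the 10-library regions of Adgrl1 and Adgrl2 lie outside the gene bodies.

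Most regions were each seen in only 1 mouse. Of the 60 regions, 51 (85.0%) came from a single library each and 9 from 2 or more, against 78.3% single-library regions among all regions on the main chromosomes. The 9 recurrent regions supplied 52 of the 103 region-library detections, and the 3 regions found in 9 or 10 libraries alone supplied 29 (28.2%).

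Adgrl1 is the shortest of the 3 genes, with 41.9 kb on the plus strand of chromosome 8 (ENSMUSG00000013033.16, chr8:83900105-83941954). Its window held 8 other protein-coding genes, among them Prkaca, which encodes a catalytic subunit of protein kinase A, and Asf1b, which encodes a histone chaperone. There were 19 merged regions, with 9 in the 5′ flank, 4 in the gene body and 6 in the 3′ flank. All 4 regions of the gene body came from a single library. The region nearest the Adgrl1 start (region 9, chr8:83896906-83897265) lay 2840 bp away, was found in F0 CD replicate 1 only and held 16 reads at its summit.

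The recurrent region of the Adgrl1 window was region 17 (chr8:84014207-84015018), in the 3′ flank and 2036 bp from a start of 2210011C24Rik. It carried a peak in all 10 libraries. The reads at its strongest summit were 20, 20, 19, 21, 16 and 18 in F0 CD replicates 1 to 6 and 20, 21, 22 and 25 in F0 WD replicates 1 to 4. The diets overlapped, and F0 WD replicate 4 was the highest. Of its bases 94.2% were repeat-masked and 28.2% lay in CA or TG runs. Region 2 of this window (chr8:83811605-83812000) had 25 reads in F0 CD replicate 2, 23 in F0 CD replicate 6 and 16 in F0 WD replicate 2, and none of its bases was masked. Region 18 was the other recurrent one, 936 bp from a start of Palm3, with 13 reads in F0 CD replicate 5 and 18 in F0 WD replicate 2. All 3 recurrent regions lay more than 50 kb from the gene body.

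Adgrl2 spans 175 kb on the minus strand of chromosome 3 (ENSMUSG00000028184.12, chr3:148815583-148990555), and no other protein-coding gene lay in its window. Its 21 regions fell into 8 in the gene body, 6 in the 5′ flank and 7 in the 3′ flank. Region 8 (chr3:148836992-148837302) was the only recurrent region within the gene body. It lay 1467 bp from the start of an Adgrl2 transcript that begins inside the gene, had no masked base, and held 10 reads in F0 CD replicate 2 and 11 in F0 WD replicate 1. The region nearest the start of the gene as a whole, region 16, lay 10965 bp upstream and was found in F0 CD replicate 2 with 13 reads.

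The strongest region of the 3 windows was Adgrl2 region 17 (chr3:149052473-149053173), 61918 bp upstream of the gene start in intergenic sequence. It held 57 copies of the telomere unit in 701 bp, counted on both strands without overlap. Its summit held 41, 35, 36, 45, 30 and 43 reads in F0 CD replicates 1 to 6 and 35, 40, 37 and 39 reads in F0 WD replicates 1 to 4. Every library had at least 30 reads there, and the F0 WD reads lay within the F0 CD range. By fold the F0 CD range was 5.64 to 8.78. F0 WD replicates 1 and 4 lay within it (6.98 and 7.33), and F0 WD replicates 2 and 3 above it (11.0 and 9.22). The region stood above a median of 98.8% of the peaks of its list. Of 113254 regions on the main chromosomes, 74 (0.0653%) held 10 or more such copies, 7 of them were found in all 10 libraries, and 4 held more copies than the Adgrl2 region.

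Further upstream, beyond 2 single-library regions, lay Adgrl2 region 20 (chr3:149059717-149060129), a region with CA or TG runs over 35.1% of its bases. It was found in 2 of 6 F0 CD libraries, with 14 reads in replicate 2 and 16 in replicate 6, and in 4 of 4 F0 WD libraries, with 26, 9, 9 and 16 reads in replicates 1 to 4. F0 WD replicate 1 was the highest, and the reads in the libraries with a peak overlapped between the diets. Region 3 (chr3:148759028-148759285), in the 3′ flank, held 24 reads in F0 CD replicate 1, 17 in F0 CD replicate 2 and 19 in F0 WD replicate 3.

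Adgrl3, a gene linked to attention deficit hyperactivity disorder in people, is the longest, with 805 kb on the plus strand of chromosome 5 (ENSMUSG00000037605.16, chr5:81020138-81825133). It was also alone in its window. Its 20 regions, 18 of them in the gene body, were mostly intronic (16 of 20). Region 4, found in F0 CD replicate 6 with 12 reads, overlapped an annotated exon of Adgrl3. Region 17 (chr5:81645516-81645773) lay 216 bp from the start of an Adgrl3 transcript that begins within the gene, and was found in F0 WD replicate 2 only with 15 reads. The region nearest the start of the whole gene, region 2, lay 16.6 kb into it and was found in F0 CD replicate 2 with 11 reads.

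Both recurrent regions of Adgrl3 were CA/TG repeats in introns. Region 18 (chr5:81806000-81806773), 786 kb from the gene start, had runs over 68.6% of its bases. Its summit held 27, 26, 17, 17 and 21 reads in F0 CD replicates 1, 2, 4, 5 and 6 and 29, 19, 22 and 17 reads in F0 WD replicates 1 to 4. It was not called in F0 CD replicate 3, and the diets overlapped. Region 10 (chr5:81502595-81503026) was masked over its whole length, with runs over 59.5% of its bases. It held 20, 10, 17 and 19 reads in F0 CD replicates 1, 2, 5 and 6 and 15, 15 and 16 reads in F0 WD replicates 1 to 3. The reads did not separate the diets. By fold F0 WD replicate 1 (3.72) lay within the F0 CD range of 3.18 to 4.69, and F0 WD replicates 2 and 3 (5.14 and 5.13) above it.

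**Figure D2:**
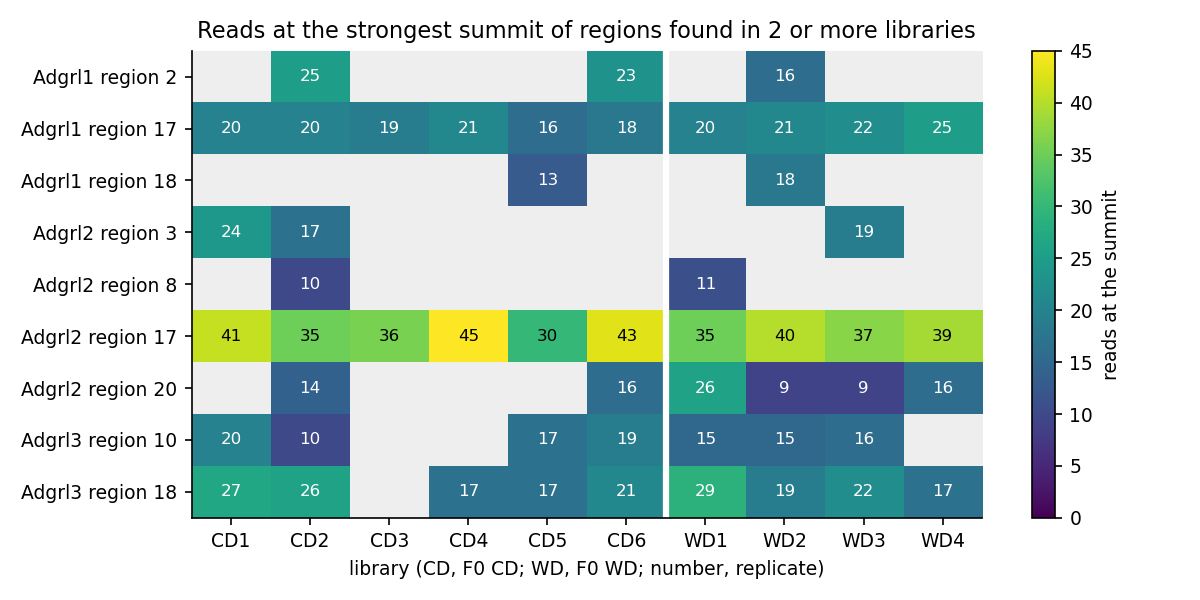
Reads at the strongest summit (colour and number) of the 9 regions found in 2 or more libraries, by library, with F0 CD left and F0 WD right of the white line. Grey cells had no called peak. Adgrl2 region 17 has the highest value in every library, between 30 and 45 reads.

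Repeat content was higher in recurrent than in single-library regions, in the windows and over the series. CA or TG runs covered at least 25% of the bases in 17.6% of the 51 single-library regions (10.8% over all single-library regions), in 6 of the 9 recurrent regions (53.4% over all) and in 5 of the 7 found in 3 or more libraries (70.4% over all). Reads of repeats can align to several places, and the alignment allowed up to 20 places per read before those of mapping quality under 5 were removed. The part of this step in the recurrent regions was not tested. Reads could be worked out for 492 of the 520 regions of the main chromosomes found in all 10 libraries. Their strongest summit had a median of 32 reads. Very strong summits (−log10 p of 60 or more) were left out, so the shares that follow may be too high. Adgrl2 region 17, with 45, exceeded 66.5% of the 492 regions and Adgrl1 region 17, with 25, exceeded 12.8%. Adgrl3 region 18, found in 9 libraries, had 29, more than 30.9% of them.

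**Figure D3:**
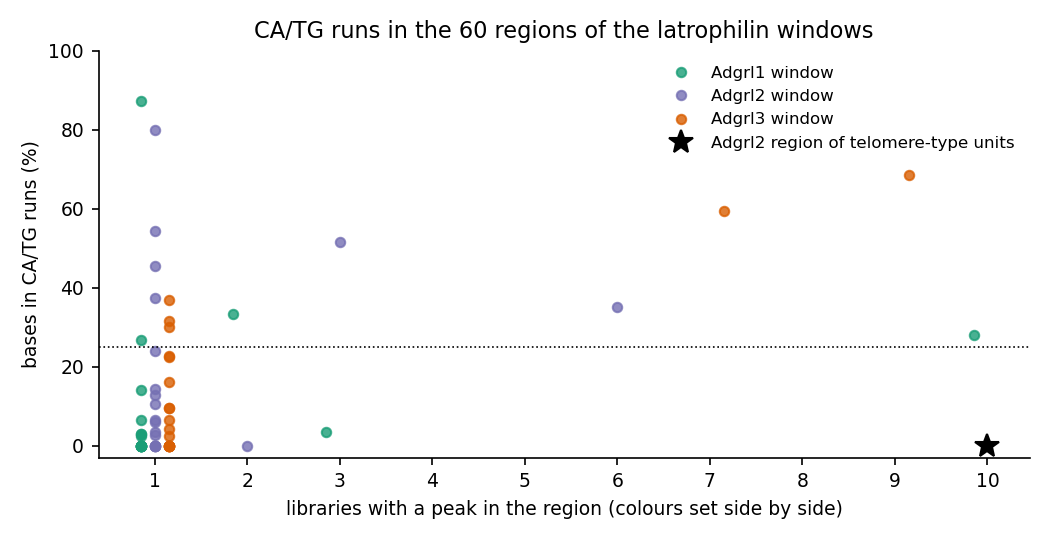
Share of bases in CA or TG runs (%) against the number of libraries with a peak, for the 60 regions of the Adgrl1 (green), Adgrl2 (purple) and Adgrl3 (orange) windows, with the Adgrl2 region of telomere-type units as a star. The dotted line marks 25%. The regions of 6 or more libraries lie above it except the star, which has no such run.

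The Adgrl3 window was poor in peaks. It held 3, 4, 1, 5, 2 and 6 peaks in F0 CD replicates 1 to 6 and 4, 5, 3 and 2 in F0 WD replicates 1 to 4, over 1005 kb. F0 CD replicates 3 and 6 were the lowest and the highest, and the F0 WD counts lay between them. The density was 3.48 ± 1.57 peaks per Mb (SD, n = 10), against 8.99 ± 2.49 on the rest of chromosome 5. It was lower in 10 of 10 libraries, at 0.39 times the rest, a difference of -5.50 peaks per Mb (SE 0.80). The exact two-sided sign-flip permutation test gave p = 0.00195, the smallest that 10 libraries allow, and 0.0103 after Benjamini-Hochberg adjustment over 21755 protein-coding gene windows. The deficit was seen in recurrent regions (1.99 per Mb against 13.5 on the rest of the chromosome) and in single-library regions (17.9 against 39.0 per Mb).

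Such a deficit was common. Of the 21755 windows, 21.4% were called lower than their chromosome and 15.5% higher, and 15.1% of all windows had a ratio below that of Adgrl3. A window without a peak in any library was always called lower, however few peaks were to be expected in it, and the 21.4% includes such windows. The Adgrl3 window had peaks in every library. Among the 99 windows of at least 1 Mb, the median ratio was 0.70, 52 were called lower and 15 had a smaller ratio than Adgrl3. Density also moved with base composition. The Adgrl3 window had 37.2% GC, against 42.5% on chromosome 5, and fell in the lowest GC quintile of the windows (34.8 to 40.8%). In that quintile the median ratio was 0.41 and 63.2% of the 4351 windows were called lower. The part of GC content in the Adgrl3 value was not tested.

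The Adgrl1 window held 3, 3, 2, 6, 2 and 3 peaks in F0 CD replicates 1 to 6 and 1, 4, 3 and 5 in F0 WD replicates 1 to 4. F0 WD replicate 1 was the lowest, F0 CD replicate 4 was the highest, and the diets overlapped. Its density was 13.2 ± 6.10 peaks per Mb (SD, n = 10), against 8.86 ± 2.30 on the rest of chromosome 8, at 1.49 times the rest and higher in 7 of 10 libraries. The difference of 4.38 peaks per Mb (SE 2.19) did not pass (exact permutation p = 0.0781, adjusted p = 0.149). The window had 49.4% GC, in the highest quintile, where the median ratio was 1.37.

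The Adgrl2 window held 2, 8, 2, 5, 4 and 3 peaks in F0 CD replicates 1 to 6 and 3, 3, 6 and 2 in F0 WD replicates 1 to 4. F0 CD replicate 2, the library with the longest list, was the highest. Its density was 10.1 ± 5.30 peaks per Mb (SD, n = 10), against 6.55 ± 1.93 on the rest of chromosome 3, at 1.55 times the rest and higher in 9 of 10 libraries. The difference of 3.58 peaks per Mb (SE 1.32) missed the threshold after adjustment (exact permutation p = 0.0215, adjusted p = 0.0552). In the same exact permutation test it passed without F0 CD replicate 3 (adjusted p = 0.0188) and with lists cut to the same number of peaks (adjusted p = 0.0102). The window had 42.0% GC, in GC quintile 2 of 5, where the median ratio was 0.82. Region 17 of the Adgrl1 window and region 17 of the Adgrl2 window each had a peak in all 10 libraries. The windows held 32 and 38 peaks in all. That locus thus entered the difference of every library, and the test does not show an excess spread over the window. For both genes the direction changed with the flank. With 50 kb in place of 100 kb on each side, which leaves out the 10-library regions, the ratios were 0.87 for Adgrl1 and 0.72 for Adgrl2, and neither difference passed. Over the gene bodies alone the ratios were 1.08, 0.78 and 0.46 for Adgrl1, Adgrl2 and Adgrl3.

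**Figure D4:**
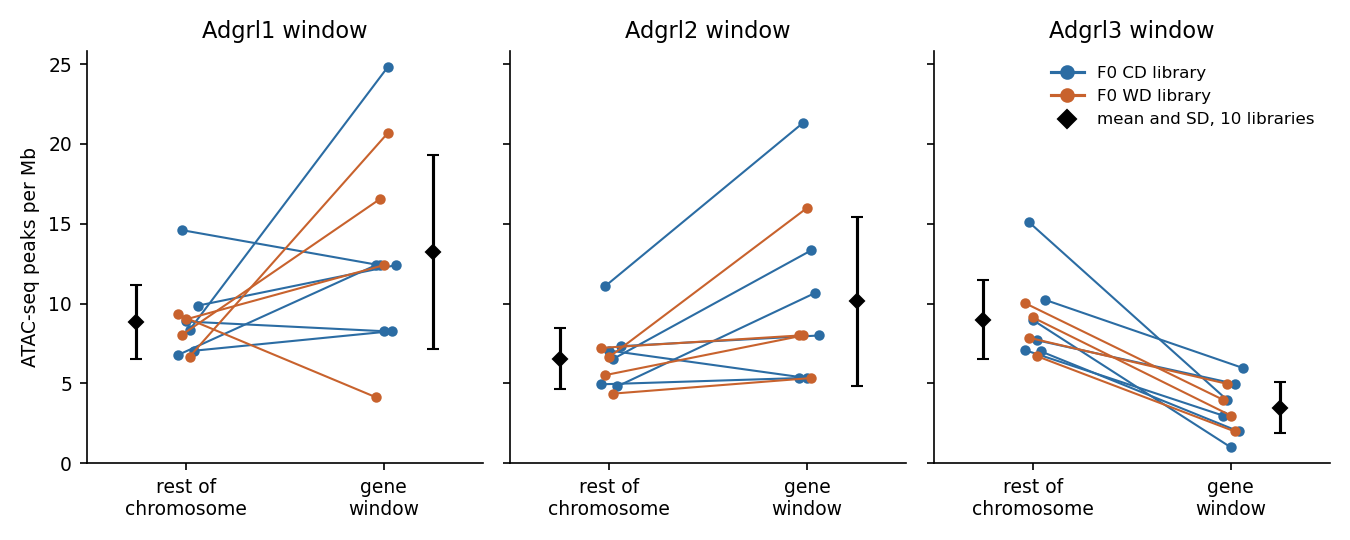
Peaks per Mb on the rest of the chromosome and in the gene window, joined per library, for F0 CD (blue) and F0 WD (orange), with the mean and SD over 10 libraries as black diamonds. All 10 lines fall for Adgrl3, while 7 rise for Adgrl1 and 9 for Adgrl2.

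**Figure D5:**
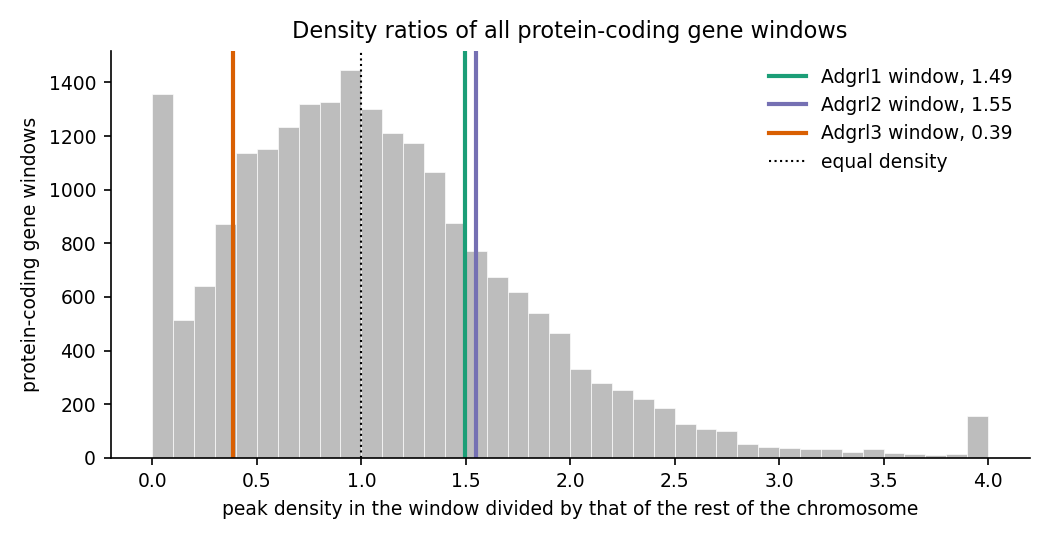
Histogram of the density ratio (window over rest of chromosome) of 21755 protein-coding gene windows, with those of 3.9 or more in the last bar, and vertical lines at the ratios of the 3 latrophilin windows. Adgrl3 lies at 0.39 on the lower flank, and Adgrl1 (1.49) and Adgrl2 (1.55) lie on the upper flank within the bulk of the windows.

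The diets overlapped in every window. Because the lists differ in length, peaks in each window were also counted per 10000 peaks of the list. For Adgrl1 the values were 1.80 ± 0.99 in F0 CD (SD, n = 6) and 2.09 ± 1.37 in F0 WD (SD, n = 4), a difference of 0.29 (SE 0.80). For Adgrl2 they were 2.10 ± 0.84 and 2.03 ± 0.79, with a difference of -0.07 (SE 0.52), and for Adgrl3 1.92 ± 0.99 and 2.08 ± 0.77, with a difference of 0.16 (SE 0.56). Each difference was smaller than its standard error. Single-library regions numbered 33 in F0 CD, or 5.5 per library, and 18 in F0 WD, or 4.5 per library. The split of all single-library regions of the series is not given, and F0 CD replicate 2 had the longest list. No difference between the diets is read from these counts.

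All 9 recurrent regions had peaks of both diets, which any region of 7 or more libraries must have. The share of all recurrent regions with both is not given, so the count says nothing particular about these genes. Fisher's exact test of detection by diet, at an unadjusted p under 0.05, called 0 of the 9 towards either diet. With 6 and 4 libraries, a region found in 2, 9 or 10 of them cannot pass, however it is split. That held for Adgrl1 regions 17 and 18, Adgrl2 regions 8 and 17 and Adgrl3 region 18. Over all 24763 regions of 2 or more libraries the test called 0.553% towards F0 WD and 0.468% towards F0 CD, and no region of the series passed after adjustment. The smallest p that Fisher's exact test allows here is 0.00476, so only a large number of regions at that value could have passed. With the less conservative mid-p form of the test, Adgrl2 region 20 was called towards F0 WD, as were 0.783% of all regions. The same call arose without F0 CD replicate 2 (1.19% of all regions called towards F0 WD) and without F0 CD replicate 6 (0.869%), both of which had a peak there.

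The region by which Adgrl3 was chosen lay outside its window. It spans chr5:79436877-79437167, which is 1582971 bp upstream of the Adgrl3 start and 1483 kb beyond the window edge. Adgrl3 was the nearest protein-coding gene, no coding start lay between them, and 7 other annotated genes began in the interval. Its strongest summit held 16, 11 and 19 reads in F0 WD replicates 2, 3 and 4, with no called peak in F0 WD replicate 1 or in any of the 6 F0 CD libraries. The same set of libraries was shared by 17 of the 24763 regions. Of its bases 6.53% were masked, and the 30 bases at its summit held a single short run.

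Region listed with Adgrl3, chr5:79437060-79437089: ggctgtataagaataTGTGTGgaaacagga

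The regions nearest to each window edge are described here. The regions just inside lay 93.8 and 88.0 kb from the Adgrl1 gene body, 86.5 and 90.9 kb from that of Adgrl2, and 68.4 and 46.3 kb from that of Adgrl3. Those just outside lay at 109 and 100.4 kb for Adgrl1, 127 and 101 kb for Adgrl2 and 103 and 130 kb for Adgrl3. The Adgrl1 neighbour at 109 kb had peaks in 4 libraries, 3 of them F0 CD, and each of the other 5 outside regions in 1 library.

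The partners of latrophilins gave mixed densities. Of 14 genes of extracellular partners and their receptors (FLRT, teneurin, neurexin and UNC5 genes), 2 windows were called higher than their chromosome and 5 lower, with a median ratio of 0.96 against 0.99 over all windows, of which 15.5% were called higher and 21.4% lower. Flrt3 had the lowest ratio, at 0.13, and the highest were Unc5b, at 2.39, and Unc5a, at 1.65, which did not pass (adjusted p = 0.0733, exact permutation test). Flrt3, which encodes a membrane protein that latrophilins bind, was below its chromosome in 9 of 10 libraries. Its window of 0.22 Mb held 2 peaks over all libraries, so its ratio rests on very few peaks.

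Of the 6 windows of intracellular partners, 4 were called higher (15.5% of all windows) and 0 lower (21.4% of all windows), with a median ratio of 1.92. At an unadjusted p under 0.05 the count of lower windows was 0 as well. Shank1, a scaffold of the postsynaptic density, had a ratio of 2.43 and Gna13, a G protein subunit, one of 2.26, while Gnao1, at 0.78, and Shank3, at 1.48, did not pass. Of the other 27 adhesion G protein-coupled receptor genes, 5 windows (18.5%) were called higher and 8 (29.6%) lower, near the 15.5% and 21.4% of all windows, with a median ratio of 1.39. The highest ratios were 2.50 at Adgra1 and 2.45 at Adgrg4, the latter from 2 peaks on chromosome X and not passing, and the lowest were 0, from no peak, at Adgrg2 and 0.27 at Adgre4. On chromosome X the rest of the chromosome held only 0.25 peaks per Mb, so the ratios of Adgrg2 and Adgrg4 rest on very few peaks. The lower call of Adgrg2 was fixed by its lack of any peak. Adgrl4, the closest relative by name, had a ratio of 1.39 and did not pass (adjusted p = 0.131, exact permutation test).

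In the diet contrast, none of the 83 recurrent regions in the extracellular partner windows and none of the 45 in the intracellular partner windows was called by Fisher's exact test, at which 0.553% of all regions were called towards F0 WD and 0.468% towards F0 CD. Regions of 2, 9 or 10 libraries were not left out, although they could not pass. Of the 82 distinct recurrent regions in the windows of the other receptors, 1 was called towards F0 WD, at Celsr1, which encodes a cadherin-type receptor of planar cell polarity. The only call towards F0 CD there was 1 region shared by the overlapping windows of Adgrg1, Adgrg3 and Adgrg5.

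The windows most like each latrophilin window in their share of the list over the 10 libraries were Nt5c1a (r = 0.96), St5 (0.93) and Mtcl1 (0.89) for Adgrl1, out of 9184 windows with a mean of at least 2 peaks per library. For Adgrl2 they were Arhgap42 (r = 0.93), Pgr (0.90) and Csf1r (0.89), and for Adgrl3 Akain1 (r = 0.92), Kansl2 (0.90) and Tmem72 (0.90), each out of 9198. These are Pearson coefficients over 10 libraries of both diets, given as a description. The windows share the libraries and their depth, and each value rests on few peaks per library.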

How the data were processed

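As stated in the methods and in the submitters' processing notes, ATAC-seq reads went through Trim Galore 0.6.10 and Bowtie2 2.4.5 on mm10, with up to 20 alignments reported per read. Picard 2.24.0 took out duplicates, and alignments of quality under 5 were dropped. From fragments between 50 and 115 bp in length, the authors called the peaks of each library on its own in MACS2 2.2.7.1 (q 0.05, shift -100, extsize 200). The deposited lists give the score of each peak, the fold (a ratio of summit to background reads, with 1 added to both) and −log10 values of p and q. The score was not analysed.

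The latrophilin genes and the gene lists were chosen with earlier results of these data known. Distinct intervals counted as peaks. Reads at a summit were solved from the deposited fold and −log10 p, and 99.994% of 182970 summits came out whole within 0.001. Summits with a −log10 p of 60 or more were not tried. Windows were the gene body with 100 kb on each side, without assembly gaps. The density in the window minus that of the rest of the chromosome was tested per gene by an exact sign-flip permutation over 10 libraries (1024 patterns, two-sided) with Benjamini-Hochberg adjustment, and detection by diet by Fisher's exact test (two-sided). Gene windows overlap, so they are not independent. A promoter window was 3 kb around a start site, and a base counted as masked where the reference writes it in lower case. No 2 libraries shared more than a Jaccard index of 0.160, so none was counted as a duplicate. Both tests were tested on simulated data.

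Regions were named if found in 3 or more libraries, if passing Fisher's test, or if strongest in their window or nearest a start site of the gene, and the region listed with Adgrl3 was added. From each gene list the 2 windows of highest and of lowest ratio were named, and for each latrophilin the 3 windows most like it. The values of 1 such window and the sequences of 2 regions are not reported here. Other regions named (the exon region, the regions of 2 libraries, and Adgrl4 and Celsr1 from the lists) were chosen after their values were seen. Alternatives varied the flank, the threshold, the unit counted, the list length, the gap treatment, the reference and the overlap, and left out each library. Sequences and coordinates came from RefSeq's GRCm38 and GENCODE M21. The software was scipy 1.17.1, numpy 2.4.6, pysam 0.24.0, pandas 2.3.3 and matplotlib 3.10.9, run in Python 3.11.15. Counting reads per region was not possible from peak lists, so the count model of the study was not repeated.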

Additional observations from a re-analysis of the deposited data

How the results depend on the processing

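The Adgrl3 deficit passed the adjusted threshold under all 17 alternatives, with ratios between 0.36 and 0.47. The Adgrl1 difference turned to -1.11 peaks per Mb with flanks of 50 kb and passed at 5.78 with the other autosomes as reference (exact permutation test, adjusted p = 0.0463). The Adgrl2 difference turned to -1.84 with flanks of 50 kb and to -1.42 over the gene body, and passed at 3.73 with assembly gaps counted and at 2.59 with lists of equal length. Leaving out each library in turn gave 3.03 to 5.44 for Adgrl1, 2.84 to 4.17 for Adgrl2, which passed without F0 CD replicate 3 alone, and -5.81 to -4.88 for Adgrl3. The number of recurrent regions called towards F0 WD was 1 with mid-p and between 0 and 1 with each library left out. Differences in the share of the list moved by less than 1 SD, and counts of regions stayed within 1.5 times, under every alternative run.

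The diets share replicate numbers 1 to 4, but the labels tie no mice together. Deviations of same-numbered libraries correlated between -0.01 and 0.04 over the regions of 2 or more libraries, and 1 of 4 F0 CD libraries correlated best with its own number. No pairing by number was thus seen, but with 4 pairs of libraries that share few peaks the check could not exclude one. With a replicate block the differences in share, F0 WD minus F0 CD, were 0.11 for Adgrl1, -0.04 for Adgrl2 and 0.30 for Adgrl3 peaks per 10000, and the blocked detection test called 0 regions, as its smallest possible p is 0.125. Few peaks per window and called summits of at least 9 reads limit what these windows can show, and a region without a peak was not shown to be closed. On simulated data without a difference the sign-flip test passed its unadjusted threshold somewhat more often than its nominal rate over all windows, most of them short, and less often in the long ones. The simulated counts were drawn independently for each library, so they do not show the rate where the same loci recur across libraries.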
